A study of Mus musculus with 18 samples.

Results

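The subunits of the constitutive proteasome were followed in bone marrow-derived macrophages of Ldha KO and WT mice, untreated or polarised with IFN-gamma or IL-4. Members were the genes with a symbol of the form Psma, Psmb, Psmc or Psmd and a number, without the inducible subunits Psmb8, Psmb9 and Psmb10 and without genes at 0 in every library. The rule used symbols and detection only. It gave 35 of the 21380 genes measured, and all 35 passed the filter on low values. By textbook role they comprised 7 alpha ring subunits, 3 catalytic and 4 other beta subunits, the testis-type alpha subunit Psma8, 6 ATPases, 3 other base subunits and 8 lid subunits of the regulatory particle, and 3 genes with subunit-like symbols (Psmd5, Psmd9 and Psmd10) that encode assembly chaperones rather than subunits of the finished particle.

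The proteasome is the cell's main protease for proteins tagged with ubiquitin. The alpha rings of its barrel-shaped core particle gate the entry, the beta rings carry the proteolytic sites of Psmb5, Psmb6 and Psmb7, and the regulatory particle binds substrates, removes their ubiquitin and unfolds them with a ring of ATPases. Macrophages exposed to IFN-gamma also make Psmb8, Psmb9 and Psmb10, which take the places of Psmb5, Psmb6 and Psmb7 in newly assembled immunoproteasomes and change the peptides available to MHC class I. When proteasome activity falls short, the transcription factor NRF1, encoded by Nfe2l1, is known to raise subunit genes together through antioxidant response elements.

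Poly(A) RNA was sequenced from 18 libraries in 6 groups of 3 animals: KO IFN-gamma, KO IL-4, KO untreated, WT IFN-gamma, WT IL-4 and WT untreated. KO is the labels' name for animals with a knockout of Ldha, the gene of the lactate dehydrogenase A chain, and by the sample codes every animal is represented under all 3 treatments. Marrow was cultured over 7 days with M-CSF (30 ng/mL) and 15% fetal bovine serum, and the cytokines were present for 24 h. The sources used here do not state how or in which cells Ldha was deleted, nor the age or strain of the animals.

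Library depth was 9.77 M to 49.5 M reads, with a median of 30.9 M. Values are the deposited normalized counts, which are read counts divided by 1 size factor per library and not corrected for transcript length. Ldha had 9189.5 to 10124 normalized counts in KO IFN-gamma libraries against 36197 to 38896 in WT IFN-gamma libraries, 4105 to 4226 in KO IL-4 against 22901 to 25145 in WT IL-4 libraries, and 2128 to 2591 in KO untreated against 10712 to 12204 in WT untreated libraries, so it was lower but not absent in KO. Lyz2, the macrophage lysozyme gene, also moved with the genotype, with 173 to 873 normalized counts over the KO libraries and 200017 to 700319 over the WT libraries. All 8 macrophage markers were present in each library, and their sum was 203481 to 218447 in KO IFN-gamma against 244634 to 271671 in WT IFN-gamma libraries, 180843 to 201669 in KO IL-4 against 224239 to 244196 in WT IL-4 libraries, and 233794 to 262827 in KO untreated against 243195 to 254801 in WT untreated libraries. Summed stromal markers (6 of 8 measured) were 195 to 738 in KO IFN-gamma against 136 to 230.0 in WT IFN-gamma libraries, 403 to 1232 in KO IL-4 against 185 to 676 in WT IL-4 libraries, and 346 to 1268 in KO untreated against 154 to 395 in WT untreated libraries. Summed dendritic cell markers (2 of 4) were 158 to 197 in KO IFN-gamma against 523 to 959.9 in WT IFN-gamma libraries. They were 57.4 to 72.2 in KO IL-4 against 16.4 to 37.1 in WT IL-4 libraries. Untreated sums were 9.8 to 19.9 in KO against 2.92 to 6.59 in WT libraries. The lower sum in KO with IFN-gamma came from Xcr1 (means of 169 in KO and 788 in WT). Zbtb46 had a higher mean in KO in each treatment (11.4 in KO and 7.93 in WT with IFN-gamma). Summed neutrophil markers (4 of 8) were 52 to 112 in KO IFN-gamma against 12.4 to 20.6 in WT IFN-gamma libraries, 409 to 747 in KO IL-4 against 266 to 391 in WT IL-4 libraries, and 344 to 625 in KO untreated against 162 to 283 in WT untreated libraries, and summed B cell markers (3 of 4) were 20.2 to 29.6 in KO IFN-gamma against 7.89 to 13 in WT IFN-gamma libraries, 30.2 to 51.2 in KO IL-4 against 13.1 to 25.1 in WT IL-4 libraries, and 39.8 to 60.6 in KO untreated against 22.4 to 37.9 in WT untreated libraries, higher in KO without overlap in each treatment. Cd4, the 1 of 5 T and NK cell markers measured, had 34.8 to 49.5 in KO IFN-gamma against 25.5 to 69.6 in WT IFN-gamma libraries, 25.2 to 48 in KO IL-4 against 98.3 to 125 in WT IL-4 libraries, and 89.6 to 155 in KO untreated against 175 to 320.1 in WT untreated libraries. Mmp8 made up most of the neutrophil sum with IL-4 and untreated (untreated means of 451 in KO and 203 in WT). Cd79b made up most of the B cell sum (untreated means of 48.6 in KO and 27.1 in WT). Of the measured markers, 2 neutrophil and 1 B cell marker were under 10 in every library. Low markers did not all follow the sums, since with IL-4 Ltf and Cd79a had lower means in KO than in WT. The part of Lyz2 and of these markers in the genotype results was not tested. Libraries of a group were compared by a chi-square of reads per gene, which is not corrected for depth. WT IL-4 replicate 2, the library of 9.77 M reads, gave 50.95 and 59.4 against the others of its group. WT IFN-gamma replicate 1 gave 55.1 and 60.5, against 4.33 for the other pair of its group. Without WT IFN-gamma replicate 1, 4 members in place of 7 were lower in KO under IFN-gamma, 32 rose with IFN-gamma in WT and 5 had a smaller IFN-gamma response in KO. The shares of all genes called without that library are not given here, so these counts cannot be set against a background. In bulk RNA a change in cell make-up and a change in RNA per cell cannot be told apart.

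Upstream sequences were found in RefSeq (GRCm38.p6) for 28 of the 35 members, in 30 windows of 250 bases before to 50 after a start. The antioxidant response element core TGACNNNGC, searched on both strands, occurred in 5 of the 30 windows (16.7%), against 12.4% of all 32851 windows. It lay in the windows of Psmb5, Psmb6, Psmc6, Psmd9 and Psmd12. The 3 upstream stretches below are shown because Psmb5 and Psmb6 had the largest rises with IL-4 and Psma5 the largest with IFN-gamma. They are printed 5′ to 3′ on the strand of the gene, with the element core in capitals. The Psmb5 stretch lies at chr14:54618023-54618115 (minus strand), that of Psmb6 at chr11:70525237-70525356 (plus strand) and that of Psma5 at chr3:108256806-108256925 (plus strand), all upstream of the start.
Psmb5: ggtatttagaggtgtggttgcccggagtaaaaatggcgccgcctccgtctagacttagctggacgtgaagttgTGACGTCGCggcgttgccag
Psmb6: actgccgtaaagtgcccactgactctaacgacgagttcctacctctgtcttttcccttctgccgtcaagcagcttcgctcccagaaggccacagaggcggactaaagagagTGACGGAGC
Psma5: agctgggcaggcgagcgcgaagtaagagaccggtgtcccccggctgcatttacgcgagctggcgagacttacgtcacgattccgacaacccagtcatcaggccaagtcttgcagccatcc
Psma5 had none of the searched letters in the stretch shown. The CCAAT box (CCAAT) occurred in 36.7% of member windows against 37.4% of all windows, the GAS element (TTCNNNGAA) in 3.33% against 8.3%, and the E-box (CACGTG) in 6.67% against 7.15%. The GAS match was in Psmd2, and the E-box matches were in Psma4 and Psmd9. Matches of different motifs did not overlap in the members' windows, and a match is a description of letters only.

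At rest the subunit transcripts differed widely in level. Per kilobase of the annotated principal transcript, Psmd8 of the lid was highest at 7504 normalized counts per kb in KO untreated and 7323 in WT untreated macrophages, followed by the catalytic subunit Psmb6 at 5337 in KO untreated and 5233 in WT untreated macrophages. Apart from Psma8, the lowest were the chaperones Psmd10, at 254 in KO untreated and 221 in WT untreated macrophages, and Psmd5, at 279 in KO untreated and 248 in WT untreated macrophages. Psma8, which is otherwise a testis subunit, was low, with 45.3, 65.8 and 59.6 normalized counts in KO untreated and 108, 90.2 and 55.3 in WT untreated libraries. The processed copy Psmb6-ps2 had at most 6.05 normalized counts in a library.

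IFN-gamma raised nearly the whole constitutive set, in both genotypes. In KO macrophages 32 of 35 members rose and 1 (Psma8) fell, against 28.3% of all 14288 tested genes called higher and 27.5% called lower (limma, Benjamini-Hochberg adjusted p under 0.05). In WT macrophages 32 rose and the other 3 did not pass, against 31.4% of all genes called higher. The median log2 change of the members was 0.72 in KO and 0.93 in WT macrophages, with medians of -0.01 over all genes in each. The geometric mean of the members without Psma8 was 3757 ± 235 normalized counts in KO IFN-gamma and 2233 ± 22.4 in KO untreated libraries. It was 3853 ± 66.6 in WT IFN-gamma and 2024 ± 64.5 in WT untreated libraries (SD, n = 3 each). As a share of all reads the members took 0.419 to 0.459% in KO IFN-gamma against 0.346 to 0.35% in KO untreated libraries, and 0.453 to 0.461% in WT IFN-gamma against 0.3 to 0.318% in WT untreated libraries. The rise is thus visible without the size factors, in libraries that do not overlap, but it was smaller. Mean shares were 0.441% against 0.347% in KO and 0.457% against 0.311% in WT. Summed normalized counts of the members were 153752 against 94932 in KO and 157418 against 87219 in WT. The normalized sums of whole libraries were themselves higher with IFN-gamma, at 34.1 M to 35.4 M against 27.0 M to 28.1 M untreated.

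**Figure D1:**
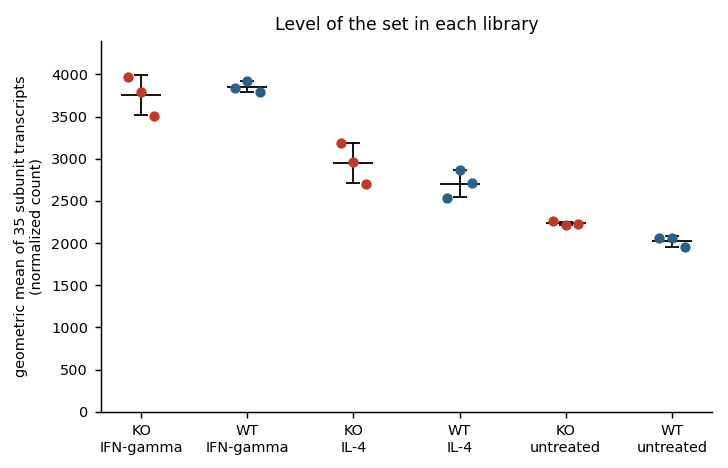
Geometric mean of the normalized counts of the members without Psma8 in each of the 18 libraries (points), by group, with the mean and SD of the 3 animals (bars). Psma8 is left out although the axis label gives 35 transcripts. IFN-gamma libraries lie highest, between 3507 and 3972, and untreated libraries lowest, between 1949 and 2258.

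The alpha ring, which forms the gate of the core particle, had the highest median change of the role groups. All 7 of its subunits rose in each genotype, with median log2 changes of 1.17 in KO and 1.36 in WT macrophages, and each of them at least doubled in WT (log2 changes of 1.03 to 1.85). The largest rise was that of Psma5 (chr3:108256926-108279974, plus strand). It had 3912, 4339.8 and 3772 normalized counts in KO IFN-gamma libraries, against 1365, 1361 and 1302 in KO untreated libraries. WT libraries had 4765, 4384 and 4276 with IFN-gamma, against 1286, 1272 and 1166 untreated. Treated and untreated libraries were far apart in both genotypes, with log2 changes of 1.57 ± 0.10 (SE) in KO and 1.85 ± 0.10 in WT macrophages (adjusted p 3.31e-10 and 3.16e-11, limma). Psma7 had 6276, 5833 and 5347 normalized counts in KO IFN-gamma libraries, against 2487, 2446 and 2448 in KO untreated libraries, and rose by 1.24 ± 0.087 on the log2 scale. Counts in WT were 6897, 6728 and 6376 with IFN-gamma, against 2422, 2457 and 2236 untreated, a rise of 1.49 ± 0.087. Its treated and untreated groups did not overlap either. Psma3 had 2669, 2771 and 2348 in KO IFN-gamma against 1154, 1112 and 1048 in KO untreated libraries, a log2 change of 1.23 ± 0.11. It had 2642, 2958 and 2625 in WT IFN-gamma against 984, 1037 and 981 in WT untreated libraries, a log2 change of 1.45 ± 0.11. The remaining alpha subunits Psma1, Psma2, Psma4 and Psma6 rose by 0.55 (Psma6) to 1.17 (Psma4) in KO and 1.03 (Psma6) to 1.36 (Psma4) in WT macrophages.

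Psma8 went the other way. It had 18.3, 29.4 and 27 normalized counts in KO IFN-gamma against 45.3, 65.8 and 59.6 in KO untreated libraries, a log2 change of -1.17 ± 0.32 (adjusted p 0.00445), and 68.7, 64.3 and 30.7 in WT IFN-gamma against 108, 90.2 and 55.3 in WT untreated libraries, a log2 change of -0.65 ± 0.32 that did not pass (adjusted p 0.0827). These are far lower counts than those of the other alpha subunits.

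The constitutive catalytic subunits rose with IFN-gamma too, although their inducible partners are known to replace them. Psmb5, the chymotrypsin-like subunit, had 1733, 1294 and 1293 normalized counts in KO IFN-gamma libraries, against 766, 792 and 803 in KO untreated libraries. It had 1413, 1263 and 1209.9 in WT IFN-gamma libraries, against 621, 656 and 584 in WT untreated libraries. The groups did not overlap and the log2 changes were 0.86 ± 0.12 in KO and 1.06 ± 0.12 in WT macrophages. Psmb6, the caspase-like subunit, had 7816, 7022 and 6374 in KO IFN-gamma libraries, against 4293, 4255 and 4229 in KO untreated libraries. The WT values were 6904, 6037 and 5367 with IFN-gamma, against 4263, 4426 and 3839.8 untreated. Its log2 changes of 0.73 ± 0.11 in KO and 0.54 ± 0.11 in WT macrophages were the smallest of the catalytic subunits. Psmb7, the trypsin-like subunit, had 3157, 2828 and 2366 in KO IFN-gamma libraries, against 1182, 1075 and 1069.6 in KO untreated libraries. For WT they were 2611, 2783 and 2490.5 with IFN-gamma, against 1118, 1027 and 976 untreated. Psmb7 rose most of these subunits, by 1.32 ± 0.11 in KO and 1.34 ± 0.11 in WT macrophages. About 11.8% of the exon bases of Psmb7 overlap a gene on the opposite strand and 12.1% of those of Psmb5 a gene on the same strand, so a part of their reads is uncertain.

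The beta subunits without a proteolytic site also rose, by 0.40 (Psmb1), 1.01 (Psmb2), 0.85 (Psmb3) and 0.72 (Psmb4) on the log2 scale in KO macrophages. In WT macrophages the rises were 0.62 (Psmb1), 1.27 (Psmb2), 1.13 (Psmb3) and 0.74 (Psmb4). All 6 ATPases rose, by 0.63 (Psmc5) to 0.79 (Psmc1, with Psmc2 at the same rounded value) in KO, with Psmc4 at 0.74, and by 0.76 (Psmc3) to 1.22 (Psmc1) in WT macrophages. The scaffold and receptor subunits of the base rose by 0.47 (Psmd1), 0.55 (Psmd2) and 0.72 (Psmd4, a ubiquitin receptor) in KO and by 0.56 (Psmd1), 0.56 (Psmd2) and 0.99 (Psmd4) in WT macrophages.

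Within the lid the changes were uneven. Psmd11, Psmd3, Psmd7, Psmd14, Psmd12 and Psmd13 rose in each genotype, from 0.51 (Psmd13) to 1.09 (Psmd11) in KO and from 0.65 to 1.34 in WT macrophages. Psmd6 and Psmd8 did not pass in either genotype. Psmd6 had 2294, 2319 and 1943 normalized counts in KO IFN-gamma against 1956, 1917 and 1777 in KO untreated libraries, with a log2 change of 0.21 ± 0.12 (adjusted p 0.162), and 1492, 1986 and 1970.4 in WT IFN-gamma against 1825, 1805 and 1741 in WT untreated libraries, with 0.01 ± 0.12 (adjusted p 0.958). Psmd8 had log2 changes of 0.21 ± 0.11 in KO (adjusted p 0.0945) and 0.20 ± 0.11 in WT macrophages (adjusted p 0.109). The assembly chaperones rose less, by 0.34 (Psmd5), 0.33 (Psmd9) and 0.37 (Psmd10) in KO and by 0.58 (Psmd5), 0.31 (Psmd9) and 0.62 (Psmd10) in WT macrophages. The call of Psmd10 in KO was lost without KO untreated replicate 1 (0.0542) or 3 (0.0692), or else KO IFN-gamma replicate 1 (0.0878) or 2 (0.0609), that of Psmd9 in KO without KO IFN-gamma replicate 1 (0.0565) and that of Psmd9 in WT without WT untreated replicate 3 (0.064) (adjusted p in parentheses). About 25.5% of the exon bases of Psmd9 overlap a gene on the opposite strand.

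**Figure D2:**
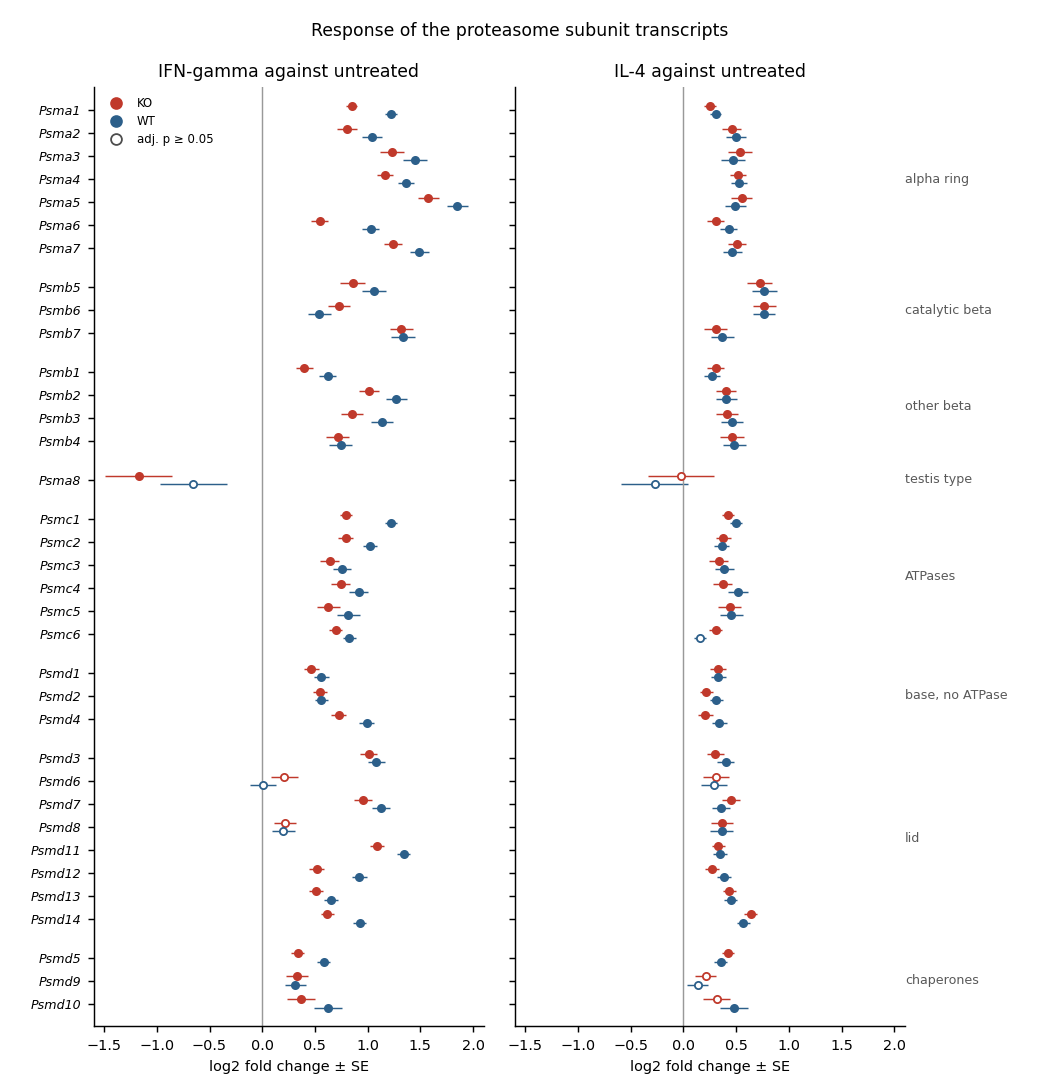
Log2 fold change ± SE of each of the 35 members (rows, by role) for IFN-gamma against untreated (left) and IL-4 against untreated (right), with KO above WT in each row. Open points have an adjusted p of 0.05 or more. Psma5 has the largest IFN-gamma change and Psmb5 and Psmb6 the largest IL-4 changes in each genotype, and Psma8 lies below 0 in each comparison.

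IL-4 raised the set as well, by a smaller amount. In KO macrophages 31 of 35 members rose, against 15.8% of all genes called higher, and in WT macrophages 31 rose, against 16.3%. The 4 that did not pass were Psma8, Psmd6, Psmd9 and Psmd10 in KO and Psma8, Psmc6, Psmd6 and Psmd9 in WT macrophages. Median log2 changes were 0.37 in KO and 0.40 in WT macrophages, with medians over all genes of 0.00076 in KO and -0.01 in WT. The geometric mean of the members without Psma8 was 2951 ± 239.6 normalized counts in KO IL-4 and 2705 ± 161 in WT IL-4 libraries (SD, n = 3 each). IFN-gamma and IL-4 comparisons share the untreated libraries, so their values are given side by side only.

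The order of the members under IL-4 was another one than under IFN-gamma. The largest changes were those of the catalytic subunits Psmb6 and Psmb5, whose upstream stretches are printed above. Psmb6 had 8421, 7286 and 6218 normalized counts in KO IL-4 and 6640.0, 7328 and 7304 in WT IL-4 libraries, all above each untreated library, with log2 changes of 0.77 ± 0.11 in KO and 0.76 ± 0.11 in WT macrophages (adjusted p 2.56e-05 and 2.95e-05). Psmb5 had 1545, 1204 and 1183 in KO IL-4 and 981, 1154 and 1037 in WT IL-4 libraries, again without overlap with the untreated ones, and changed by 0.72 ± 0.12 in KO and 0.77 ± 0.12 in WT macrophages. Psmb7, the remaining catalytic subunit, changed less, with 1527, 1448 and 1164 in KO IL-4 and 1214, 1397 and 1429 in WT IL-4 libraries and log2 changes of 0.31 ± 0.11 in KO and 0.37 ± 0.11 in WT macrophages. KO IL-4 replicate 3 lay within the range of the untreated KO libraries. The KO call of Psmb7 had an adjusted p of 0.0446 and was lost in 8 of 15 alternatives, and the WT call in 4 of 15, always by leaving out a library in WT and also by other choices in KO. The libraries without which it was lost were KO untreated replicate 1 (0.0501), 2 (0.126) or 3 (0.129), or else KO IL-4 replicate 1 (0.193) or 2 (0.143) in KO and WT untreated replicate 2 (0.051) or 3 (0.0762), or else WT IL-4 replicate 2 (0.0522) or 3 (0.0649) in WT (adjusted p in parentheses).

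Psmd14, the lid enzyme that removes ubiquitin chains from substrates, came next. It had 3322, 3033 and 2988 normalized counts in KO IL-4 against 2032, 2003 and 1952 in KO untreated libraries, and 2639, 2964 and 2623 in WT IL-4 against 1836, 1884 and 1814 in WT untreated libraries. The log2 changes were 0.64 ± 0.062 in KO and 0.57 ± 0.062 in WT macrophages, without overlap of the groups. The alpha ring rose by 0.25 to 0.55 in KO and 0.31 to 0.53 in WT macrophages, all 7 members in each genotype. Psmd8, which had not passed under IFN-gamma, rose by 0.37 ± 0.11 in KO and 0.36 ± 0.11 in WT macrophages. Its call was lost in KO without KO untreated replicate 2 (0.0574), or else KO IL-4 replicate 1 (0.084) and in WT without WT untreated replicate 3 (0.092). In KO, the call of Psmd2 was lost without KO untreated replicate 2 (0.0743), or else KO IL-4 replicate 1 (0.0509) and that of Psmd4 without KO untreated replicate 1 (0.0772), 2 (0.0968) or 3 (0.0855), or else KO IL-4 replicate 1 (0.154) or 2 (0.107). The Psmd4 call was also lost without a filter (0.0601) and with only the groups compared (0.0529). In WT, the call of Psmb1 was lost without WT untreated replicate 3 (0.0514), or else WT IL-4 replicate 2 (0.0703) and that of Psmd10 without WT untreated replicate 3 (0.0589).

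A direct comparison of the cytokines, added after the responses had been seen, put 21 of 35 members higher with IFN-gamma than with IL-4 in KO macrophages, against 27.5% of all genes, with 1 (Psma8) lower, against 27.4%. In WT macrophages 28 of 35 were higher, against 30.8%. Median log2 differences of the members were 0.33 in KO and 0.54 in WT macrophages. The 7 alpha subunits were higher with IFN-gamma in each genotype. Psma5, which had the largest difference, had 2098, 2037 and 1789 normalized counts in KO IL-4 and 1644, 2108 and 1526 in WT IL-4 libraries, all below the IFN-gamma values given above, and differed by 1.02 ± 0.10 in KO and 1.36 ± 0.10 in WT. Psma7, with 3996, 3512 and 3056 in KO IL-4 and 3028, 3433 and 3366 in WT IL-4 libraries, differed by 0.73 ± 0.087 in KO and 1.03 ± 0.087 in WT. Psmd11, a lid scaffold subunit, had 4478, 4267 and 4021 in KO IFN-gamma against 2590.2, 2393 and 2565 in KO IL-4 libraries, and 4137, 4397 and 4264 in WT IFN-gamma against 2165, 2036 and 2222 in WT IL-4 libraries. No libraries overlapped, and Psmd11 differed by 0.76 ± 0.064 in KO and 0.99 ± 0.064 in WT, and Psmb7 by 1.01 ± 0.11 in KO and 0.97 ± 0.11 in WT. Psmb6 did not pass, with -0.04 ± 0.11 in KO (adjusted p 0.763) and -0.22 ± 0.11 in WT (adjusted p 0.0819). The WT value was called lower with the animals as a block (adjusted p 0.0374) and without WT IFN-gamma replicate 1 (adjusted p 0.0218), within a range of 0.0218 to 0.331 over the alternatives. Psmb5 passed in WT only, at 0.29 ± 0.12 (adjusted p 0.0399), against 0.13 ± 0.12 in KO (adjusted p 0.358). The WT call was lost without WT IFN-gamma replicate 1 (0.142) or 2 (0.0621), or else WT IL-4 replicate 1 (0.122) or 3 (0.0895), and with only the groups compared (0.0509). Psma8 was lower with IFN-gamma in KO, with a log2 difference of -1.15 ± 0.32 and 18.3, 29.4 and 27 normalized counts in KO IFN-gamma against 50.4, 56.4 and 59.5 in KO IL-4 libraries. In KO, the call of Psma6 was lost without KO IFN-gamma replicate 2 (0.0565), or else KO IL-4 replicate 3 (0.0806) and that of Psmc3 without KO IFN-gamma replicate 1 (0.0546). In WT, the call of Psmc5 was lost without WT IL-4 replicate 1 (0.057) and that of Psmd1 without WT IFN-gamma replicate 3 (0.0611), or else WT IL-4 replicate 2 (0.0605). With only the groups compared the WT calls of Psmd1 (0.0804), Psmd13 (0.0621) and Psmd5 (0.0516) were lost as well.

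The balance between each constitutive catalytic subunit and its inducible partner differed by pair. Psmb8 had 14463, 12264 and 11945 normalized counts in KO IFN-gamma, 5045, 5639 and 4249.6 in KO IL-4 and 2825, 3137 and 3119 in KO untreated libraries. WT macrophages gave 16613, 14762 and 13234 with IFN-gamma, 4406, 5325 and 4495 with IL-4 and 3219.9, 3077 and 2886 untreated. Psmb8 thus stood above the level of Psmb5 already at rest and rose by 2.09 ± 0.11 in KO and 2.28 ± 0.11 in WT macrophages with IFN-gamma. Per kilobase, its share of the Psmb5 and Psmb8 pair was 83.2 ± 0.95% in KO IFN-gamma and 86.3 ± 0.477% in WT IFN-gamma, 67.6 ± 4.02% in KO IL-4 and 71.2 ± 0.637% in WT IL-4, and 68 ± 0.808% in KO untreated and 73.2 ± 0.988% in WT untreated libraries (SD, n = 3 each).

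Psmb9 had 6331, 5355 and 5114 normalized counts in KO IFN-gamma, 1311, 1614 and 1186 in KO IL-4 and 943, 1116 and 1073 in KO untreated libraries. Values in WT were 7857, 6810.2 and 6525 with IFN-gamma, 1632, 1590.2 and 1535 with IL-4 and 1192, 1156 and 1023 untreated. Its rise with IFN-gamma was 2.42 ± 0.11 in KO and 2.65 ± 0.11 in WT macrophages, but its constitutive partner Psmb6 is abundant. Per kilobase Psmb9 made up 31.8 ± 0.703% of the Psmb6 and Psmb9 pair in KO IFN-gamma and 40.6 ± 0.989% in WT IFN-gamma libraries, and 12.6 ± 1.02% in KO untreated and 13.7 ± 0.417% in WT untreated libraries. With IL-4 the share was 10 ± 1.57% in KO and 11.7 ± 0.866% in WT. Psmb6 was thus the more abundant transcript of this pair in each group.

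Psmb10 had 11612, 9225 and 8576 normalized counts in KO IFN-gamma, 6934, 6325 and 5405 in KO IL-4 and 1649, 1876 and 1786 in KO untreated libraries. WT counts were 7575, 8572 and 8217 with IFN-gamma, 4688, 6138 and 5829.6 with IL-4 and 1892, 2026 and 1784 untreated. It was the inducible subunit that IL-4 raised most, by 1.81 ± 0.12 in KO and 1.54 ± 0.12 in WT macrophages, against 2.46 ± 0.12 in KO and 2.09 ± 0.12 in WT with IFN-gamma. Its share of the Psmb7 and Psmb10 pair was 75.7 ± 1.22% in KO IFN-gamma and 73.2 ± 1.26% in WT IFN-gamma, 80 ± 0.497% in KO IL-4 and 78.4 ± 1.09% in WT IL-4, and 58.5 ± 2.89% in KO untreated and 61.8 ± 1.81% in WT untreated libraries.

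Between genotypes, the log2 ratio of Psmb9 to Psmb6 per kilobase under IFN-gamma was -1.10 in KO and -0.55 in WT, a difference of -0.55 with no overlap of the libraries. The ratio of Psmb8 to Psmb5 was 2.31 in KO and 2.66 in WT under IFN-gamma, and 1.09 in KO and 1.45 in WT untreated, also without overlap. Each of these 3 comparisons had a two-sided exact permutation p of 0.1, the smallest that 3 against 3 libraries allow, and an adjusted p of 0.257 over the 9 ratios compared. The other 6 comparisons overlapped, with exact permutation p of 0.2 to 0.4.

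**Figure D3:**
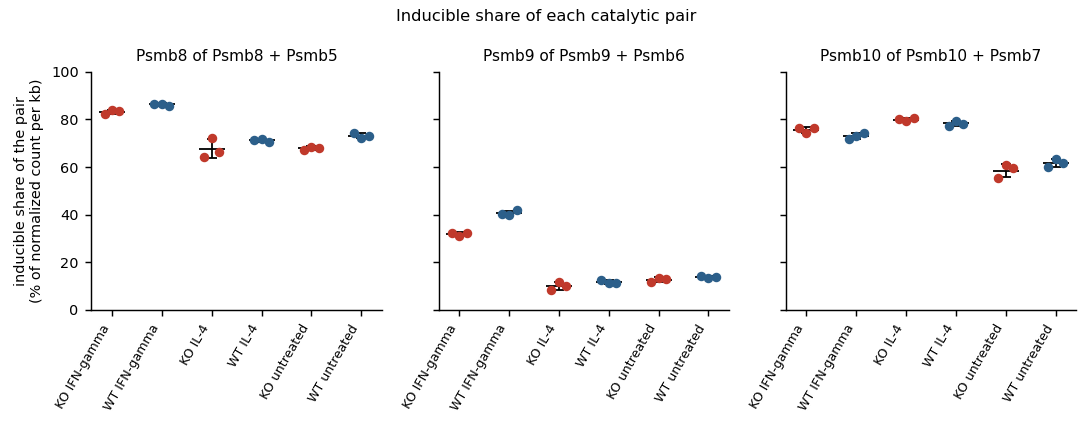
Share of the inducible subunit in the summed normalized count per kb of each catalytic pair, for each library (points) by group, with the mean and SD of the 3 animals. With IFN-gamma the Psmb9 share is 31.8% in KO and 40.6% in WT, while Psmb10 has its highest share with IL-4.

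In untreated macrophages the members differed little in level between KO and WT. Of 35 members, 1 (Psmc1) was higher in KO untreated than in WT untreated macrophages, against 1.46% of all genes called higher. The median log2 difference was 0.14, against 0.01 over all genes, and 24 members had every KO library above every WT library, against 16.4% of all genes. At an unadjusted p under 0.05 there were 12 members, against 11.9% of all genes. Psmc1 (chr12:100110154-100123405, plus strand), an ATPase of the regulatory particle, had 3318, 3261 and 3225 normalized counts in KO untreated libraries, against 2800.0, 2758 and 2584 in WT untreated libraries. The difference of 0.27 ± 0.057 had an adjusted p of 0.0164. Adjusted p over the alternatives was 0.000143 to 0.121, and the call was lost without KO untreated replicate 1 (0.095), 2 (0.0566) or 3 (0.064), or else WT untreated replicate 2 (0.0645) or 3 (0.121). With the untreated groups fitted alone 9 members were called higher, among them Psmb5, which had the largest difference of 0.34 ± 0.12 (adjusted p 0.18 in the joint fit). The share of all genes called in that fit is not given here, and the 1.46% above belongs to the joint fit. Psmb6 and Psmb7 had differences of 0.03 ± 0.11 and 0.09 ± 0.11 that did not pass.

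Under IFN-gamma the genotype difference had the opposite sign for part of the set. In KO IFN-gamma macrophages 7 of 35 members were lower than in WT IFN-gamma macrophages, against 13.6% of all genes called lower. The median log2 difference was -0.04, against 0.01 over all genes, and 11 members had every KO library below every WT library, against 21.4% of all genes. By limma 0 members were higher, with 11 at an unadjusted p under 0.05 in either direction against 38.9% of all genes, 0 higher by edgeR and 1 (Psmd2) higher by DESeq2. Psma6 (chr12:55384222-55418454, plus strand), an alpha subunit, had the largest difference among members of more than a trace level. It had 4104, 4175 and 3921 normalized counts in KO IFN-gamma libraries, against 5457, 5164 and 5014 in WT IFN-gamma libraries. The libraries did not overlap, the log2 difference was -0.36 ± 0.08 (adjusted p 0.00325), and the call held in all 15 alternatives. Psma1 (chr7:114264606-114276118, minus strand) had 7226, 7571 and 7203 in KO IFN-gamma against 8573, 8542 and 8303 in WT IFN-gamma libraries, a difference of -0.21 ± 0.055 (adjusted p 0.00871) that was also called in all 15 alternatives.

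The other 5 calls under IFN-gamma were less firm. Psmb1, a beta subunit, had 4859, 4748 and 4705 normalized counts in KO IFN-gamma against 5781, 5717 and 5322 in WT IFN-gamma libraries, a difference of -0.23 ± 0.078 (adjusted p 0.0345, over the alternatives 0.022 to 0.0981). It was lost without KO IFN-gamma replicate 1 (0.0619), 2 (0.0815) or 3 (0.0853), or else WT IFN-gamma replicate 1 (0.0981) or 2 (0.0895), and also without a filter (0.0517). Psmd14 differed by -0.20 ± 0.062 (adjusted p 0.0248, 0.00766 to 0.0799 over the alternatives), and was lost without KO IFN-gamma replicate 1 (0.0605) or 3 (0.0799), or else WT IFN-gamma replicate 2 (0.0797). Fitting only the groups compared also lost it (0.0599). Psmd12 differed by -0.20 ± 0.068 (adjusted p 0.0358, 0.0139 to 0.153 over the alternatives), and was lost without KO IFN-gamma replicate 1 (0.0982) or 3 (0.153), or else WT IFN-gamma replicate 1 (0.0583), 2 (0.0925) or 3 (0.0686). The Psmd12 call was lost too without a filter (0.0602), with median centring (0.0504) and with only the groups compared (0.0982). The lid subunits Psmd12 and Psmd14 and the beta subunit Psmb1 thus kept a lower value in KO, but with calls that depended on single libraries and on the processing. Psmc1 differed by -0.16 ± 0.057 (adjusted p 0.0469, 0.0166 to 0.145 over the alternatives), with calls lost in 11 of 15 alternatives, the omission of each of the 6 libraries included. Psma8 differed by -1.04 ± 0.32 (adjusted p 0.0209, 0.00336 to 0.0979 over the alternatives) with 18.3, 29.4 and 27 normalized counts in KO IFN-gamma against 68.7, 64.3 and 30.7 in WT IFN-gamma libraries, and was lost without KO IFN-gamma replicate 1 (0.0979), or else WT IFN-gamma replicate 1 (0.0956) or 2 (0.0797). With only the groups compared the Psma8 call was lost as well (0.0782). The catalytic subunits Psmb5, Psmb6 and Psmb7 did not pass, at 0.14 ± 0.12, 0.22 ± 0.11 and 0.07 ± 0.11.

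Under IL-4, 3 of 35 members were higher in KO than in WT macrophages, against 3.46% of all genes called higher, and the median log2 difference was 0.10 against 0.01 over all genes. Psmd7 (chr8:107580381-107588464, minus strand), the lid partner of Psmd14, had 3268, 2992 and 2744 normalized counts in KO IL-4 libraries, against 2087, 2551 and 2369 in WT IL-4 libraries. Its libraries did not overlap and differed by 0.36 ± 0.085 (adjusted p 0.0165, 0.00258 to 0.2 over the alternatives). The chaperone Psmd5 had 1720.4, 1612 and 1601 in KO IL-4 against 1453, 1351 and 1375 in WT IL-4 libraries, a difference of 0.24 ± 0.06 (adjusted p 0.0239, 0.00476 to 0.258 over the alternatives). Psmd11 had 2590.2, 2393 and 2565 in KO IL-4 against 2165, 2036 and 2222 in WT IL-4 libraries, a difference of 0.23 ± 0.064 (adjusted p 0.0368, 0.0148 to 0.261 over the alternatives). None of these 3 members was called when the IL-4 groups were fitted alone. Calls were lost without KO IL-4 replicate 1 (0.0841), or else WT IL-4 replicate 1 (0.0619) for Psmd7, without KO IL-4 replicate 1 (0.0986), or else WT IL-4 replicate 2 (0.0538) or 3 (0.0606) for Psmd5 and without KO IL-4 replicate 1 (0.12) or 3 (0.0784), or else WT IL-4 replicate 1 (0.0568) or 2 (0.0932) for Psmd11. The Psmd11 call was also lost without a filter (0.0628).

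Averaged over the 3 treatments of each animal, 1 member (Psmd7) was higher in KO, against 6.33% of all genes, by 0.24 ± 0.064 (adjusted p 0.0429, 0.0385 to 0.139 over the alternatives). With the replicate number as a block, and by edgeR and DESeq2, 0 members were called higher, while limma had 6 at an unadjusted p under 0.05, against 28.5% of all genes. Psmd7 had 4419.8, 4421 and 3898 normalized counts in KO IFN-gamma against 3653, 4091 and 4164 in WT IFN-gamma libraries, and 2316, 2087 and 2177 in KO untreated against 1852, 1839 and 1762 in WT untreated libraries. The call was lost without KO replicate 1 (0.121) or 2 (0.116), or else WT replicate 1 (0.0735), 2 (0.064) or 3 (0.105).

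**Figure D4:**
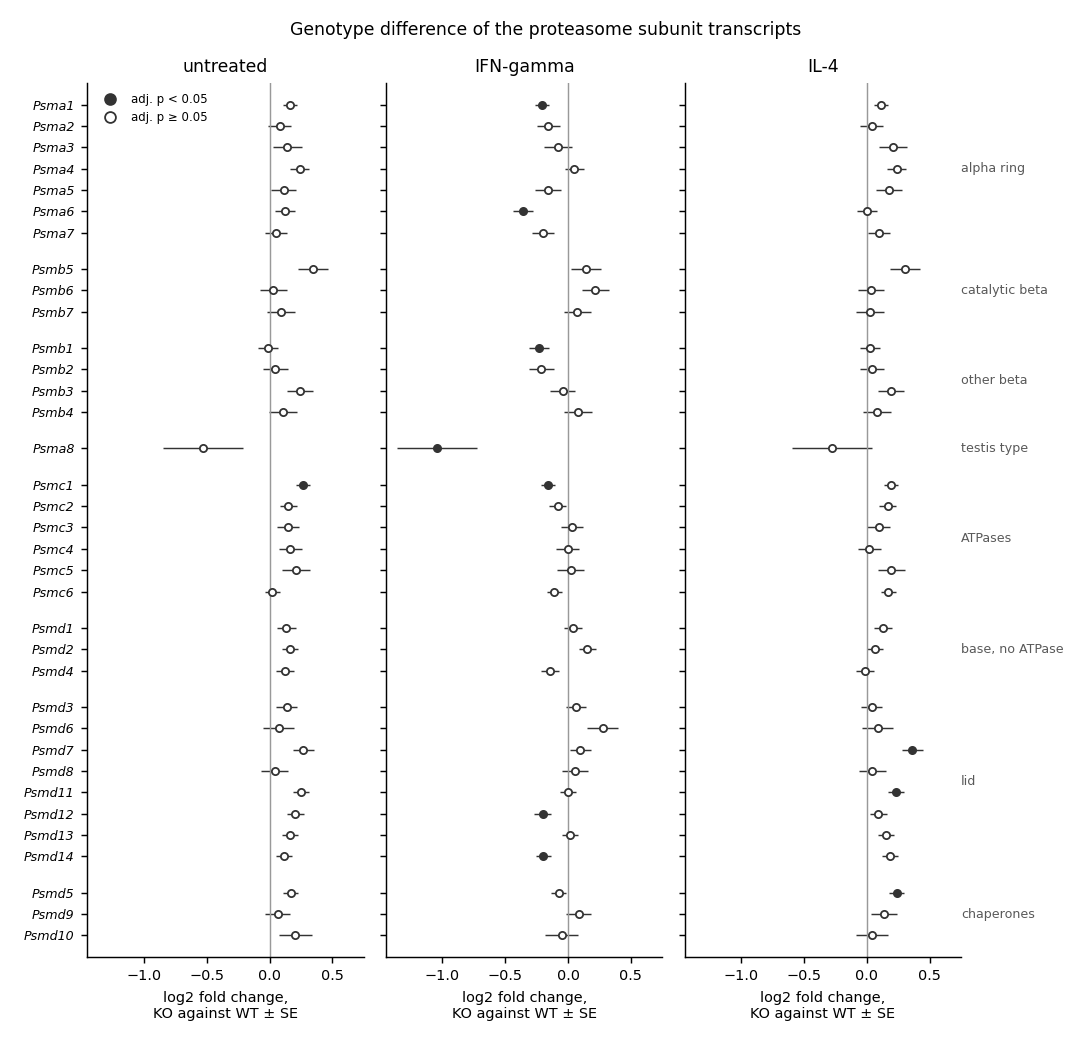
Log2 fold change of KO against WT ± SE for each of the 35 members (rows, by role) in untreated, IFN-gamma and IL-4 macrophages. Filled points have an adjusted p under 0.05. Untreated and IL-4 values lie mostly above 0, while 7 members, led by Psma8 and Psma6, are lower in KO under IFN-gamma.

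The response to IFN-gamma itself was smaller in KO than in WT macrophages for 5 members. This interaction test called 5 of 35 lower, against 4.84% of all genes, with a median log2 difference of the members of -0.22 against -0.0013 over all genes. Negative values were found for 31 of 35 members, the 7 alpha and 6 ATPase subunits among them. Psma6 rose by 0.55 in KO and 1.03 in WT macrophages, a difference of -0.48 ± 0.11 (adjusted p 0.0128). Psmc1 had 5689, 5820.5 and 5489 normalized counts in KO IFN-gamma and 6392, 6374 and 6189.6 in WT IFN-gamma libraries, and with the opposite order of the untreated values its response differed by -0.43 ± 0.08 (adjusted p 0.0029). Psmc1 was the member with the smallest adjusted p, below in KO with IFN-gamma and above in KO at rest.

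Psmd12 (chr11:107479484-107504362, plus strand), a lid scaffold subunit, had 3255, 3619 and 3097 normalized counts in KO IFN-gamma against 2398, 2144 and 2424 in KO untreated libraries. In WT macrophages there were 3770.3, 3880.2 and 3789.9 with IFN-gamma, against 2095, 1929.6 and 2014 untreated. The response differed by -0.41 ± 0.097 (adjusted p 0.0137). Psma1 had 4025, 4129 and 4060.4 in KO untreated and 3579, 3631 and 3694 in WT untreated libraries, and its response differed by -0.37 ± 0.077 (adjusted p 0.00573). Psmd14 (chr2:61711694-61800376, plus strand) had 3050.4, 3148 and 2985 in KO IFN-gamma and 3455, 3602 and 3468 in WT IFN-gamma libraries, and its response differed by -0.31 ± 0.088 (adjusted p 0.0337, 0.00594 to 0.0819 over the alternatives). The calls of Psma6, Psmc1, Psmd12 and Psma1 held in all 21 alternatives, and that of Psmd14 was lost in 12 of 21. Those were the fit without a filter, centring on the library median, and the omission of KO untreated replicate 1 (0.0764), 2 (0.075) or 3 (0.0596), or else WT untreated replicate 1 (0.0676), 2 (0.062) or 3 (0.0819), or else KO IFN-gamma replicate 1 (0.0628) or 3 (0.0733), or else WT IFN-gamma replicate 2 (0.0702) or 3 (0.0505). The interaction of the catalytic subunits did not pass, at -0.20 ± 0.17 for Psmb5, 0.18 ± 0.15 for Psmb6 and -0.02 ± 0.16 for Psmb7.

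**Figure D5:**
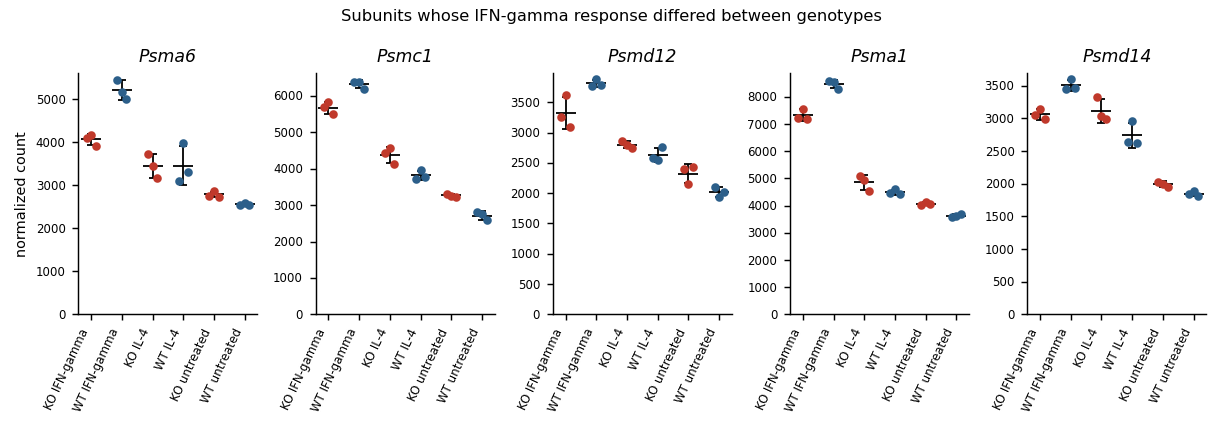
Normalized counts per library (points) with the mean and SD of 3 animals for the 5 members whose IFN-gamma response differed between genotypes. Within each panel the KO IFN-gamma libraries lie below the WT IFN-gamma libraries, while KO untreated libraries lie above the WT untreated libraries.

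The IL-4 response did not differ detectably between genotypes. By limma, edgeR and DESeq2, 0 of 35 members were called, 0 had an unadjusted p under 0.05 against 5.42% of all genes, and 0.007% of all genes were called in either direction. The smallest adjusted p among members belonged to the ATPase Psmc6, at 0.15 ± 0.084 (adjusted p 0.955), followed by Psmd4, at -0.13 ± 0.10 (adjusted p 0.992).

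Of 39 further genes of the proteasome system, chosen by function, 23 rose and 7 fell with IFN-gamma in KO macrophages. The shares of all genes there were 28.3% called higher and 27.5% called lower. In WT macrophages 26 rose and 8 fell, against 31.4% of all genes called higher and 31.1% called lower. The activator subunits Psme1 and Psme2, which open the gate of the core particle, rose by 1.88 ± 0.09 and 2.27 ± 0.094 in KO and by 2.06 ± 0.09 and 2.49 ± 0.094 in WT macrophages. The core assembly factor Pomp rose by 1.29 ± 0.15 in KO and 1.33 ± 0.15 in WT, whereas the alpha ring chaperones Psmg1 and Psmg2 fell by 0.40 and 0.34 on the log2 scale in KO and by 0.35 and 0.65 in WT. Psmg3 and Psmg4, chaperones of the same list, did not fall. Their ratios of group means, IFN-gamma to untreated, were 1.23 and 1.20 in KO and 1.14 and 1.04 in WT. The Psmg2 call in KO (adjusted p 0.0497) was lost without a filter (0.0637), with median centring (0.0831) and without KO untreated replicate 1 (0.0993), 2 (0.114) or 3 (0.0797), or else KO IFN-gamma replicate 1 (0.0916), 2 (0.121) or 3 (0.07). The Psmg1 call in WT was lost without WT untreated replicate 2 (0.0666), or else WT IFN-gamma replicate 1 (0.057). Ubb, which encodes ubiquitin, rose by 1.30 ± 0.064 in KO and 1.33 ± 0.064 in WT. With IL-4, 20 rose and 5 fell in KO macrophages, against 15.8% of all genes called higher and 14.5% called lower. In WT macrophages 20 rose and 5 fell with IL-4, against 16.3% of all genes called higher and 14% called lower. Psme1 and Psme2 rose by 0.73 ± 0.09 and 0.95 ± 0.094 in KO and by 0.72 ± 0.09 and 0.90 ± 0.094 in WT with IL-4. Zfand5, a proteasome-binding activator, rose by 0.64 ± 0.091 in KO and 0.32 ± 0.091 in WT, where the call was lost without WT untreated replicate 2 (0.0556), or else WT IL-4 replicate 1 (0.0606). Ngly1, the deglycosylase that processes NRF1, fell by 0.59 on the log2 scale in KO and by 0.66 in WT. Keap1, the adaptor that targets NRF2 for degradation, was higher with IFN-gamma than with IL-4, by 1.20 ± 0.073 in KO and 1.12 ± 0.073 in WT.

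Nfe2l1, the gene of NRF1, had 18800.5, 18540.3 and 18279 normalized counts in KO IFN-gamma, 9774, 9978 and 11674 in KO IL-4 and 9129, 8795 and 9264 in KO untreated libraries. WT cells had 25627, 21913 and 22176 with IFN-gamma, 13743, 10046 and 10605 with IL-4 and 9428, 8849 and 8429.7 untreated. It rose with IFN-gamma by 1.03 ± 0.10 in KO and 1.38 ± 0.10 in WT, and with IL-4 it changed by 0.35 ± 0.10 in WT (adjusted p 0.0134) and by 0.20 ± 0.10 in KO, which did not pass (adjusted p 0.146). The WT change with IL-4 had an adjusted p of 0.00175 to 0.0772 over the alternatives and was lost with only the groups compared and without WT untreated replicate 3 (0.0622), or else WT IL-4 replicate 1 (0.0704). The change was 0.21 on the log2 scale without WT IL-4 replicate 1. Under IFN-gamma it was lower in KO than in WT by 0.32 on the log2 scale (adjusted p 0.025, 0.0129 to 0.112 over the alternatives), a call lost without KO IFN-gamma replicate 1 (0.0537), 2 (0.0602) or 3 (0.0641), or else WT IFN-gamma replicate 1 (0.112). Nfe2l2, the gene of the related factor NRF2, had 9525, 10318 and 10939 in KO IFN-gamma, 11819, 13246 and 11522 in KO IL-4 and 13843, 14877 and 15116 in KO untreated libraries. The WT counts came to 13868, 11868 and 11583 with IFN-gamma, 11458, 13469 and 12204 with IL-4 and 14806, 14497 and 14188 untreated. Nfe2l2 moved opposite to the members with IFN-gamma, by -0.51 ± 0.084 in KO and -0.23 ± 0.084 in WT, and its difference of KO against WT under IFN-gamma was -0.28 ± 0.084 (adjusted p 0.0215, 0.00905 to 0.11 over the alternatives). The WT fall was lost without WT untreated replicate 1 (0.0754) or 2 (0.0613), or else WT IFN-gamma replicate 2 (0.0951) or 3 (0.117), and the genotype call without KO IFN-gamma replicate 1 (0.098), or else WT IFN-gamma replicate 1 (0.11) and with only the groups compared. With IL-4 Nfe2l2 fell too, with ratios of group means to untreated of 0.835 in KO and 0.854 in WT. The KO call was lost without KO untreated replicate 2 (0.0781) or 3 (0.0897), or else KO IL-4 replicate 1 (0.0785) or 3 (0.0809). That in WT was lost without a filter (0.0672), with only the groups compared (0.0656) and by edgeR (0.0542). It was also lost without WT untreated replicate 1 (0.119), 2 (0.103) or 3 (0.0822), or else WT IL-4 replicate 1 (0.15) or 3 (0.101).

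Between genotypes, 6 of the 39 were higher and 7 lower in KO under IFN-gamma, against 14.3% of all genes higher and 13.6% lower. Akirin2, which brings proteasomes into the nucleus, differed by -0.50 ± 0.071, and Uchl5, a deubiquitinase of the regulatory particle, by -0.42 ± 0.089. Zfand2a, a heat shock-induced proteasome-binding protein, differed by 0.44 ± 0.053, and the proteasome-bound ligase Ube3c by 0.48 ± 0.10. Over animal means Vcp, the unfoldase that feeds the proteasome, and its cofactor Nploc4 were higher in KO, by 0.19 ± 0.053 and 0.19 ± 0.046, against 6.33% of all genes. Each call was lost without any 1 of the 6 animals, with the replicate block, without a filter and by edgeR, and that of Nploc4 also by DESeq2 and that of Vcp also with TMM factors. Their adjusted p over the alternatives was 0.0348 to 0.141 for Vcp and 0.0311 to 0.147 for Nploc4. Zfand2a was also called higher in KO over animal means. That call was lost only without WT replicate 3 (limma adjusted p 0.0561) and by edgeR (adjusted p 0.0948). With IL-4, 2 of the 39 were higher in KO, Zfand5 by 0.42 ± 0.091 and Txnl1, a regulatory particle-bound thioredoxin-like protein, by 0.25 ± 0.06, against 3.46% of all genes. Neither was called with only the IL-4 groups fitted, and the calls were lost without KO IL-4 replicate 1 (0.0524) for Zfand5 and without KO IL-4 replicate 1 (0.0923), or else WT IL-4 replicate 3 (0.0535) for Txnl1. The IFN-gamma response was called higher in KO for 3 of the 39 and lower for 2, against 4.3% of all genes higher and 4.84% lower. Untreated, 0 of 39 were called in either direction by limma, with 5 at an unadjusted p under 0.05, against 11.9% of all genes. By edgeR 0 were called and by DESeq2 2.

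Over the 18 libraries, the genes outside the proteasome lists whose log2 level was most like the mean of the standardised members were Arf1 and Eif6 (Pearson r 0.983 each), Ccdc86 (0.979), Nsfl1c (0.978), Cops5 (0.978), Pdzd11 (0.977), Zc3h12a (0.976), Stx8 (0.975), Prkcsh (0.975) and Cst7 (0.972). Nsfl1c encodes a cofactor of the unfoldase Vcp, and Cops5 the catalytic subunit of the COP9 signalosome, a complex built like the proteasome lid. The 18 libraries fall into 3 treatments with different levels of the members, so the correlations mix differences between and within treatments and carry no test.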

How the data were processed

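Poly(A) RNA of 18 macrophage libraries was measured. The deposited table holds normalized counts per gene, a signal that the authors made by dividing read counts by 1 size factor per library. STAR 2.5, HTSeq 0.6, DESeq2, edgeR and GRCm38 are named in the submitters' processing notes, and the kit was directional per the labels' protocols, while no source used here states the strand setting of the counting. All values (100%) were whole reads at a tolerance of 0.1 after undoing the size factors, so edgeR and DESeq2 were run on recovered reads as alternatives. Of 21428 rows, 34 identifiers occurred more than once with the same values and were used once.

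Genes with at least 10 normalized counts in 3 or more libraries (14288) were tested with limma 3.58.1 in R 4.3.3 on log2(normalized count + 1), with 6 group means, 12 residual degrees of freedom, a mean-variance trend and Benjamini-Hochberg adjustment over all genes tested. Fold changes are on that scale, and SE is the standard error of limma. Alternatives were pseudocounts of 0.5 and 5, no filter, TMM factors, centring on the library median, a replicate block, only the groups compared, leaving out each library, edgeR 4.0.16 and DESeq2 1.42.0. Scripts were tested on simulated data. Members, role lists and tests were chosen with earlier results of these data known. Named with values in each library were the catalytic pairs and, per comparison, up to 3 called members in each direction with the largest change (mean of at least 100 in 1 group), or the 2 members of smallest adjusted p where none was called. Of the other proteasome genes, up to 4 with the smallest adjusted p were named, and Nfe2l1 and Nfe2l2. A further listed gene is not reported here. Further names, the ratio tests and IFN-gamma against IL-4 were chosen after values were seen. Levels per kb use the principal transcript of GENCODE M21, in which 97.8% of identifiers were found, all of them at the same position.

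The 3 libraries with the same animal code come from the same animal, and deviations from group means correlated by 0.00363 to 0.243 in these 18 pairs, 13 of them over 0.1. Replicates within a group are different animals. The main fit has no term for the animal and takes libraries of the same animal as independent. Its p-values thus measure the spread of libraries within groups, pooled over all groups. Only the test of animal means and the fits with animals as a block take the shared animal into account. Libraries of a group differed by more than sampling noise (chi-square per gene of 4.33 to 60.5), and WT IFN-gamma replicate 1 stood apart from its group (55.1 and 60.5, against 4.33 for the other pair). This chi-square is not corrected for depth, and WT IL-4 replicate 2, with 9.77 M reads, gave 50.95 and 59.4.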

Additional observations from a re-analysis of the deposited data

Results flagged for a closer look

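The IFN-gamma response differed between KO and WT macrophages, by a test of the difference itself (limma, adjusted over all genes tested), for 5 subunits and 5 further genes of the proteasome system (3 of 39 higher and 2 lower), against 4.3% of all genes called higher and 4.84% called lower. On the log2 scale, KO minus WT, the subunits differed by -0.48 ± 0.11 for Psma6 (adjusted p 0.0128), -0.43 ± 0.08 for Psmc1 (adjusted p 0.0029), -0.41 ± 0.097 for Psmd12 (adjusted p 0.0137), -0.37 ± 0.077 for Psma1 (adjusted p 0.00573) and -0.31 ± 0.088 for Psmd14 (adjusted p 0.0337). For each of them all 3 KO IFN-gamma libraries lay below all 3 WT IFN-gamma libraries, a pattern found in 21.4% of all genes. The same libraries enter the test that picked these subunits, so this is a description and no separate support. Among the further genes, the response difference was negative for Akirin2, at -0.59 ± 0.10 (adjusted p 0.00136) and for the deubiquitinase gene Uchl5, at -0.51 ± 0.13 (adjusted p 0.0172). It was positive for the shuttle factor Ubqln4, at 0.53 ± 0.15 (adjusted p 0.0328, 0.00186 to 0.0902 over the alternatives), for Ube3c, at 0.49 ± 0.14 (adjusted p 0.037, 0.0147 to 0.0919 over the alternatives) and for Zfand2a, at 0.25 ± 0.076 (adjusted p 0.0472, 0.00548 to 0.135 over the alternatives). The Ubqln4 call was lost without KO untreated replicate 1 (0.057), 2 (0.0684) or 3 (0.0753), or else WT untreated replicate 2 (0.0902) or 3 (0.0841), or else KO IFN-gamma replicate 1 (0.0887) or 3 (0.0615), or else WT IFN-gamma replicate 1 (0.0706). The Ube3c call was lost without KO untreated replicate 1 (0.0709), 2 (0.0659) or 3 (0.0862), or else WT untreated replicate 1 (0.0599), 2 (0.0763) or 3 (0.0879), or else KO IFN-gamma replicate 1 (0.0725) or 2 (0.0918), or else WT IFN-gamma replicate 1 (0.0516). The Zfand2a call was lost without KO untreated replicate 1 (0.0604), 2 (0.135) or 3 (0.083), or else WT untreated replicate 1 (0.0818), 2 (0.132) or 3 (0.0678), or else KO IFN-gamma replicate 1 (0.0868), 2 (0.0805) or 3 (0.0734), or else WT IFN-gamma replicate 1 (0.0625), 2 (0.0563) or 3 (0.0889). It was also lost without a filter (limma adjusted p 0.101) and by edgeR (adjusted p 0.0616).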

How the results depend on the processing

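No result changed sign with a call. Counts of members called higher in KO untreated macrophages, 1 as reported, were 2 with a pseudocount of 5, 2 with the replicate block, 9 with only the groups compared and 3 by DESeq2. Under IFN-gamma, members called higher were 1 by DESeq2 against 0 as reported, and members called lower, 7 as reported, were 4 without a filter and 3 with only the groups compared. Under IL-4, members called higher, 3 as reported, were 5 with centring on the library median, 0 with only the groups compared and 7 by DESeq2. Over animal means, members called higher, 1 as reported, were 0 with the replicate block, 0 by edgeR and 0 by DESeq2, and members called lower were 1 by DESeq2. For IFN-gamma against IL-4 in WT, members called lower were 2 with the block on animals. Each setting has its own share of all genes called, which is not given here, so these counts cannot be set against the shares above. The cause of these shifts was not tested.

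Leaving out 1 library gave 0 to 1 members higher in KO untreated, 2 to 5 lower under IFN-gamma, 0 to 5 higher under IL-4 and 0 to 1 higher over animal means. The shares of all genes called in these fits are not given here either. It gave 30 to 32 members higher with IFN-gamma in KO, 31 to 33 higher and 0 to 1 lower in WT, 27 to 31 higher with IL-4 in KO and 27 to 32 in WT. Against IL-4, IFN-gamma had 20 to 22 higher in KO, and 26 to 28 higher and 0 to 2 lower in WT, and the IFN-gamma response had 4 to 5 members smaller in KO. Medians were 0.12 to 0.15 for KO against WT untreated, -0.07 to 0.03 under IFN-gamma (positive without KO IFN-gamma replicate 3), 0.05 to 0.16 under IL-4 and 0.03 to 0.11 over animal means. They were 0.65 to 0.80 and 0.91 to 0.95 for IFN-gamma in KO and WT, 0.32 to 0.44 and 0.37 to 0.45 for IL-4 in KO and WT, 0.25 to 0.38 and 0.45 to 0.54 for IFN-gamma against IL-4 in KO and WT, -0.25 to -0.16 for the difference of IFN-gamma responses and -0.08 to 0.06 for that of IL-4 responses.

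With the animals as a replicate block, 33 members were higher with IFN-gamma in each genotype, 32 with IL-4 in each genotype, and 5 had a smaller IFN-gamma response in KO. Between KO and WT, samples share only a replicate number, and their deviations correlated by -0.212 to 0.104. For single genes, 341 calls were lost and 95 gained over the alternatives, and 13698 values kept their direction and side of the threshold. Depth was 9.77 M to 49.5 M reads, and Psma8, with the fewest counts, is the member that it limits.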
